A study of Mus with 10 samples.

Results

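Aminoacyl-tRNA synthetases and genes of the ATF4 stress response were examined in type 1 innate lymphoid cells (ILC1s) of the mouse liver. The group held 39 genes of the 24564 in the deposited table, chosen by gene symbol. Of these, 20 encode cytosolic synthetases or their subunits, 10 encode mitochondrial synthetases, and 9 are *Atf4* and genes of its stress program. ILC1s are tissue-resident lymphocytes that carry the activating receptor NKp46, which *Ncr1* encodes. The study compared untreated, freshly sorted liver ILC1s of *Ncr1*gfp/gfp mice, in which *gfp* takes the place of *Ncr1*, with those of *Ncr1*+/+ mice, to ask what NKp46 does in these cells. Both groups were C57BL/6 mice, 6 to 8 weeks old and male or female by the study's methods, and each gave 5 libraries. ILC1s were gated as lineage-negative, NK1.1-positive, CD49b-negative and CD49a-positive cells, with an antibody against NKp46 in *Ncr1*+/+ mice and with GFP in *Ncr1*gfp/gfp mice, so the gate differed with genotype.

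A synthetase joins an amino acid to the tRNA that reads its codon, and cells keep separate enzymes for the cytosol and the mitochondrion for most amino acids. Uncharged tRNA activates the kinase GCN2, which phosphorylates eIF2alpha, lowers general translation and favours translation of the *Atf4* mRNA. The transcription factor ATF4 then raises genes for amino acid synthesis, transport and tRNA charging, and with longer stress *Ddit3*, *Trib3* and *Chac1*. ATF4 is controlled largely in translation, so the level of its mRNA need not follow the protein.

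The total count was between 15796253 and 22623133 per library, and 3 counts in a library corresponded to between 0.132 and 0.1905 CPM, a gene's count scaled to its library's size after TMM normalization. *Ncr1* had 1913 to 2144 CPM in *Ncr1*+/+ and 141 to 356 CPM in *Ncr1*gfp/gfp ILC1s. Of 7 ILC1 markers, *Itga1* was higher in *Ncr1*gfp/gfp ILC1s (log2 fold change 0.32, edgeR adjusted p = 0.000481) and 6 did not pass the test. An unadjusted edgeR p under 0.05 was found for 5 of the 7, against 11.4% of all tested genes. The log2 fold changes of the 7 ran from -0.19 to 0.32, with 3 above 0, 4 below 0 and a median of -0.12. Of 5 tested T cell markers, *Cd3e*, *Cd3g* and *Cd8a* were higher in *Ncr1*gfp/gfp ILC1s, with log2 fold changes of 1.88, 0.45 and 1.53 (edgeR adjusted p = 0.00235, 0.00169 and 0.0248), while *Cd3d* at 1.04 (edgeR adjusted p = 0.0527) and *Cd4* at 0.25 (edgeR adjusted p = 0.923) did not pass. The summed CPM of the T cell list, most of it *Cd3g*, was 461 to 579 in *Ncr1*+/+ and 633 to 835 in *Ncr1*gfp/gfp ILC1s. The untested *Cd5* had 12 counts in all in *Ncr1*+/+ and 78 in *Ncr1*gfp/gfp libraries, and *Cd8b1* had 28 and 1. The part of the T cell list in the values below was not tested. None of the 4 NK cell, 1 B cell, 3 hepatocyte and 7 macrophage markers tested passed. Of these, 2 of the 4 NK cell markers and 1 of the 3 hepatocyte markers had an unadjusted edgeR p under 0.05, against 11.4% of all tested genes. Log2 fold changes ran from -0.77 to 0.52 over the NK cell markers and from -0.04 to 2.05 over the hepatocyte markers. *Alb*, the albumin gene of hepatocytes, had 28.0 CPM in *Ncr1*+/+ replicate 1 and 38.0 in *Ncr1*gfp/gfp replicate 3 against 0.971 to 4.69 elsewhere. *Xist* was at most 1.09 CPM and *Ddx3y*, on the Y chromosome, at 133 to 171 CPM in all 10 libraries. All 10 thus had the pattern of male cells, although the study's methods name mice of either sex.

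None of the 39 genes differed between *Ncr1*gfp/gfp and *Ncr1*+/+ ILC1s past the threshold of an adjusted p of 0.05 (edgeR's quasi-likelihood test, Benjamini-Hochberg adjustment over 11463 tested genes). Low counts kept *Asns*, *Chac1* and *Trib3* out of the test, so that 36 were tested. Over all tested genes, 155, or 1.35%, passed. At an unadjusted p under 0.05 the same edgeR test gave 4 of the 36 (11.1%), against 11.4% of all tested genes. DESeq2 gave 3 of the 36, against 1406 of the 11463 tested genes. In every one of the 36 the libraries of the genotypes overlapped, whereas 3.11% of all tested genes had libraries that did not overlap. The log2 fold change was below 0 in 17 and above 0 in 19. For 31 of the 36 the 95% interval of the fold change lay within 1.5-fold either way, and for 35 it left out both a doubling and a halving, the exception being *Lars2*. Nothing states that each library came from a separate mouse and the study speaks of RNA pools, so the p-values measure the spread between these libraries. In bulk RNA, fewer cells of a type and less RNA per cell cannot be told apart.

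**Figure D1:**
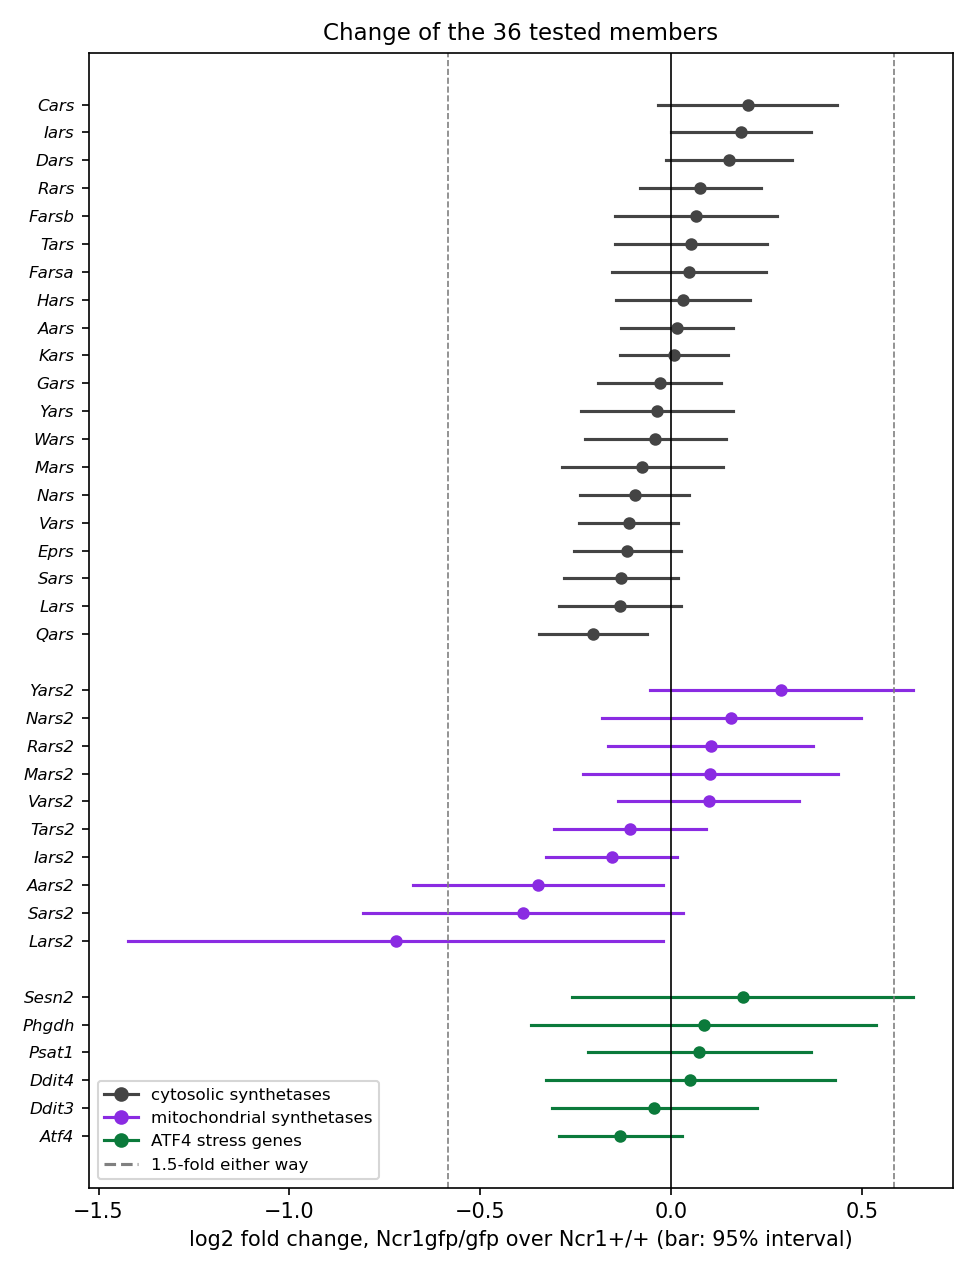
The log2 fold change of each of the 36 tested genes, *Ncr1*gfp/gfp over *Ncr1*+/+ (horizontal axis), with its 95% interval from edgeR as a bar; dashed lines mark a 1.5-fold change either way. All 20 cytosolic synthetases have bars inside the dashed lines, and *Lars2* has the lowest value and the widest bar.

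Cytosolic synthetases were well expressed and the steadiest of the 3 groups. Per kilobase of exon, which allows genes to be compared, their levels had a median of 28.2 CPM per kb against 11.3 for all tested genes. The valyl-tRNA synthetase gene *Vars* stood above the rest at 92.4 CPM per kb, and made up 15.8% of the summed per-kb level of the 20 genes. *Kars* (lysine) followed at 45.9 CPM per kb, then *Nars* (asparagine) at 39.3 and *Qars* (glutamine) at 38.8. *Dars* (aspartate), *Gars* (glycine), *Eprs* (glutamate and proline), *Aars* (alanine), *Rars* (arginine), *Sars* (serine), *Hars* (histidine), *Tars* (threonine), *Wars* (tryptophan), *Farsa* (a phenylalanyl-tRNA synthetase subunit) and *Lars* (leucine) ranged from 31.6 down to 20.3 CPM per kb. *Yars* (tyrosine), *Mars* (methionine), *Farsb* (the other phenylalanyl subunit) and *Iars* (isoleucine) lay between 15.8 and 14.2. The cysteinyl-tRNA synthetase gene *Cars* was lowest at 7.35 CPM per kb. Neighbours in this order mostly overlapped in their libraries, except that *Vars* was above and *Cars* below all the others in every library.

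**Figure D2:**
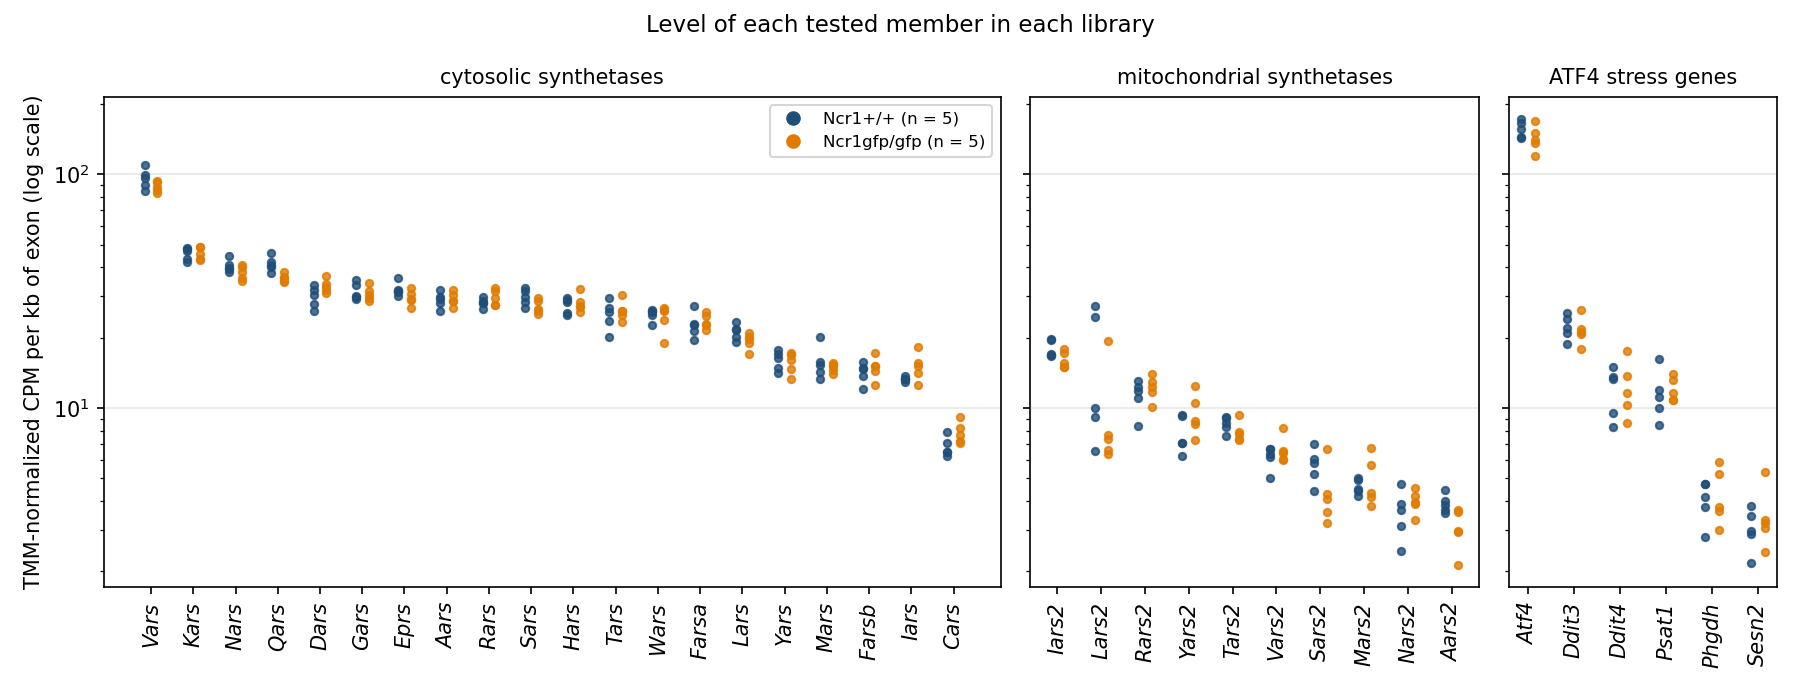
Level of each of the 36 tested genes in each library, in TMM-normalized CPM per kilobase of exon on a log scale, ordered by mean level within each group, with 5 points per genotype. *Atf4* and *Vars* are the highest, most mitochondrial synthetases lie below the cytosolic ones, and the points of the genotypes overlap for every gene.

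The summed CPM of the 20 cytosolic genes was 1834 ± 69.2 (SD, n = 5) in *Ncr1*+/+ and 1778 ± 25.4 (SD, n = 5) in *Ncr1*gfp/gfp ILC1s, with ranges of 1766 to 1931 and 1746 to 1809 that overlapped. The coefficient of variation between libraries had a median of 7.84% in *Ncr1*+/+ and 7.41% in *Ncr1*gfp/gfp ILC1s, against 11.97% and 12.7% for all tested genes. These medians were not matched for expression level. The lowest mean CPM was 22.0 in the cytosolic, 8.33 in the mitochondrial and 7.55 in the ATF4 group. Whether the difference in level accounts for the smaller variation was not tested. Of the 20 log2 fold changes, 10 were below 0 and 10 above, with a median of -0.01 beside 0.003 for all tested genes. They ran from -0.21 for *Qars* to 0.20 for *Cars*, with standard errors of 0.06 to 0.11, and all 20 intervals lay between a fold change of 0.787 and 1.35. The synthetases fall into 2 structural classes of unrelated fold. Of the 9 class I genes 6 were below 0 (median log2 fold change -0.04), and of the 10 class II genes 3 were (median 0.02), *Eprs* holding a domain of each. The 8 genes whose products sit in the multi-synthetase complex had a median of -0.03 and the 12 others a median of -0.01, in each case with as many genes above 0 as below.

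*Qars*, on chromosome 9 from 108410336 to 108418272 (plus strand), encodes glutaminyl-tRNA synthetase and had the smallest p of the 36. Its level was 116, 94.5, 103, 106 and 101 CPM in *Ncr1*+/+ replicates 1 to 5 and 87.6, 89.995, 86.8, 90.6 and 95.3 CPM in *Ncr1*gfp/gfp replicates 1 to 5. The genotypes overlapped in 1 place, where *Ncr1*gfp/gfp replicate 5 was just above *Ncr1*+/+ replicate 2. This amounted to a log2 fold change of -0.21 (standard error 0.07, edgeR adjusted p = 0.173), with a 95% interval of the fold change from 0.787 to 0.957. A two-sided exact permutation test of the *Qars* CPM, unadjusted over genes, gave p = 0.0159, where the smallest p that 5 against 5 libraries allow is 0.00794.

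*Iars*, on chromosome 13 from 49777499 to 49829636 (plus strand), encodes isoleucyl-tRNA synthetase. It had 58.4, 56.7, 60.2, 58.7 and 58.4 CPM in *Ncr1*+/+ and 61.9, 68.1, 55.1, 80.5 and 66.5 CPM in *Ncr1*gfp/gfp ILC1s. Thus 4 *Ncr1*gfp/gfp libraries were above and 1 was below all of the *Ncr1*+/+ libraries, which were closely spaced. For *Iars* the log2 fold change was 0.18 (standard error 0.09, edgeR adjusted p = 0.439; two-sided exact permutation test, p = 0.0873). *Dars*, which charges aspartate tRNA, is listed at 130260284 to 130313993 of chromosome 1 (minus strand). Its libraries held 80.1, 84.6, 69.7, 65.4 and 76.2 CPM in *Ncr1*+/+ and 80.1, 92.1, 85.2, 77.8 and 82.3 CPM in *Ncr1*gfp/gfp ILC1s, where 2 libraries exceeded the highest *Ncr1*+/+ value. Its log2 fold change was 0.15 (standard error 0.08, edgeR adjusted p = 0.495; two-sided exact permutation test, p = 0.0952). The genome build of the coordinates is not stated in the deposited table.

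Mitochondrial synthetases were expressed at lower levels than the cytosolic set, with a median of 7.31 CPM per kb. *Iars2* was highest at 17.0 CPM per kb, followed by *Lars2* at 12.5, *Rars2* at 11.7, *Yars2* at 8.64, *Tars2* at 8.22, *Vars2* at 6.40, *Sars2* at 5.03, *Mars2* at 4.78, *Nars2* at 3.77 and *Aars2* at 3.47. Each charges the mitochondrial tRNA of the amino acid that its cytosolic namesake serves. Between libraries their coefficient of variation had a median of 13.5% in *Ncr1*+/+ and 17.0% in *Ncr1*gfp/gfp ILC1s. Of the 10 log2 fold changes 5 were below 0 and 5 above, with a median of -0.00, and 6 of the intervals lay within 1.5-fold either way. Their summed CPM was 284 ± 40.9 (SD, n = 5) in *Ncr1*+/+ and 251 ± 26.4 (SD, n = 5) in *Ncr1*gfp/gfp ILC1s, with overlapping ranges of 242 to 331 and 232 to 297. *Lars2* made up 122 of the 331 CPM in *Ncr1*+/+ replicate 1. In each library the median over the 10 genes of the log2 ratio to the gene's mean was taken as well, and it was 0.02 ± 0.05 in *Ncr1*+/+ and -0.07 ± 0.06 in *Ncr1*gfp/gfp ILC1s (SD, n = 5 each), with overlapping ranges of -0.05 to 0.07 and -0.13 to 0.00. The 7 genes other than *Lars2*, *Sars2* and *Aars2* had log2 fold changes from -0.16 (*Iars2*) to 0.29 (*Yars2*, edgeR adjusted p = 0.545).

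*Lars2*, on chromosome 9 from 123276045 to 123371793 (plus strand), encodes the mitochondrial leucyl-tRNA synthetase and varied most of the 36 genes. It had 122, 40.6, 109, 29.1 and 44.5 CPM in *Ncr1*+/+ and 34.1, 28.1, 32.5, 85.5 and 29.2 CPM in *Ncr1*gfp/gfp ILC1s. Both genotypes held high and low libraries, 2 high ones in *Ncr1*+/+ and 1 in *Ncr1*gfp/gfp ILC1s. Averaged over these, the log2 fold change came to -0.72 (standard error 0.34, edgeR adjusted p = 0.415; two-sided exact permutation test, p = 0.198), with a 95% interval of the fold change from 0.373 to 0.985. With each library left out in turn it ran from -1.15, without *Ncr1*gfp/gfp replicate 4, to -0.42, without *Ncr1*+/+ replicate 1, and *Lars2* passed in none of these fits. The libraries highest in *Lars2* were also highest in the microRNA gene *Mir6236*, described under other observations, and a common source was not tested.

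*Aars2*, on chromosome 17 from 45643781 to 45657792, had 16.4, 13.4, 13.05, 14.1 and 14.7 CPM in *Ncr1*+/+ and 7.81, 13.2, 10.9, 10.8 and 13.4 CPM in *Ncr1*gfp/gfp ILC1s. In 3 *Ncr1*gfp/gfp libraries this mitochondrial alanyl-tRNA synthetase gene was below every *Ncr1*+/+ library. *Aars2* thus had a log2 fold change of -0.35 (standard error 0.16, edgeR adjusted p = 0.388; two-sided exact permutation test, p = 0.0317). *Sars2*, the serine enzyme, had 9.92, 11.1, 8.45, 11.6 and 13.4 CPM in *Ncr1*+/+ and 8.19, 6.12, 12.7, 7.79 and 6.84 CPM in *Ncr1*gfp/gfp ILC1s. All but replicate 3 of *Ncr1*gfp/gfp were under the lowest *Ncr1*+/+ library. Its log2 fold change was -0.39 (standard error 0.20, edgeR adjusted p = 0.489; two-sided exact permutation test, p = 0.103). *Sars2*, *Nars2* and *Cars* share chromosome 7 with *Ncr1*, at 25.2, 99.8 and 146 Mb from it in the coordinates of the table.

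**Figure D3:**
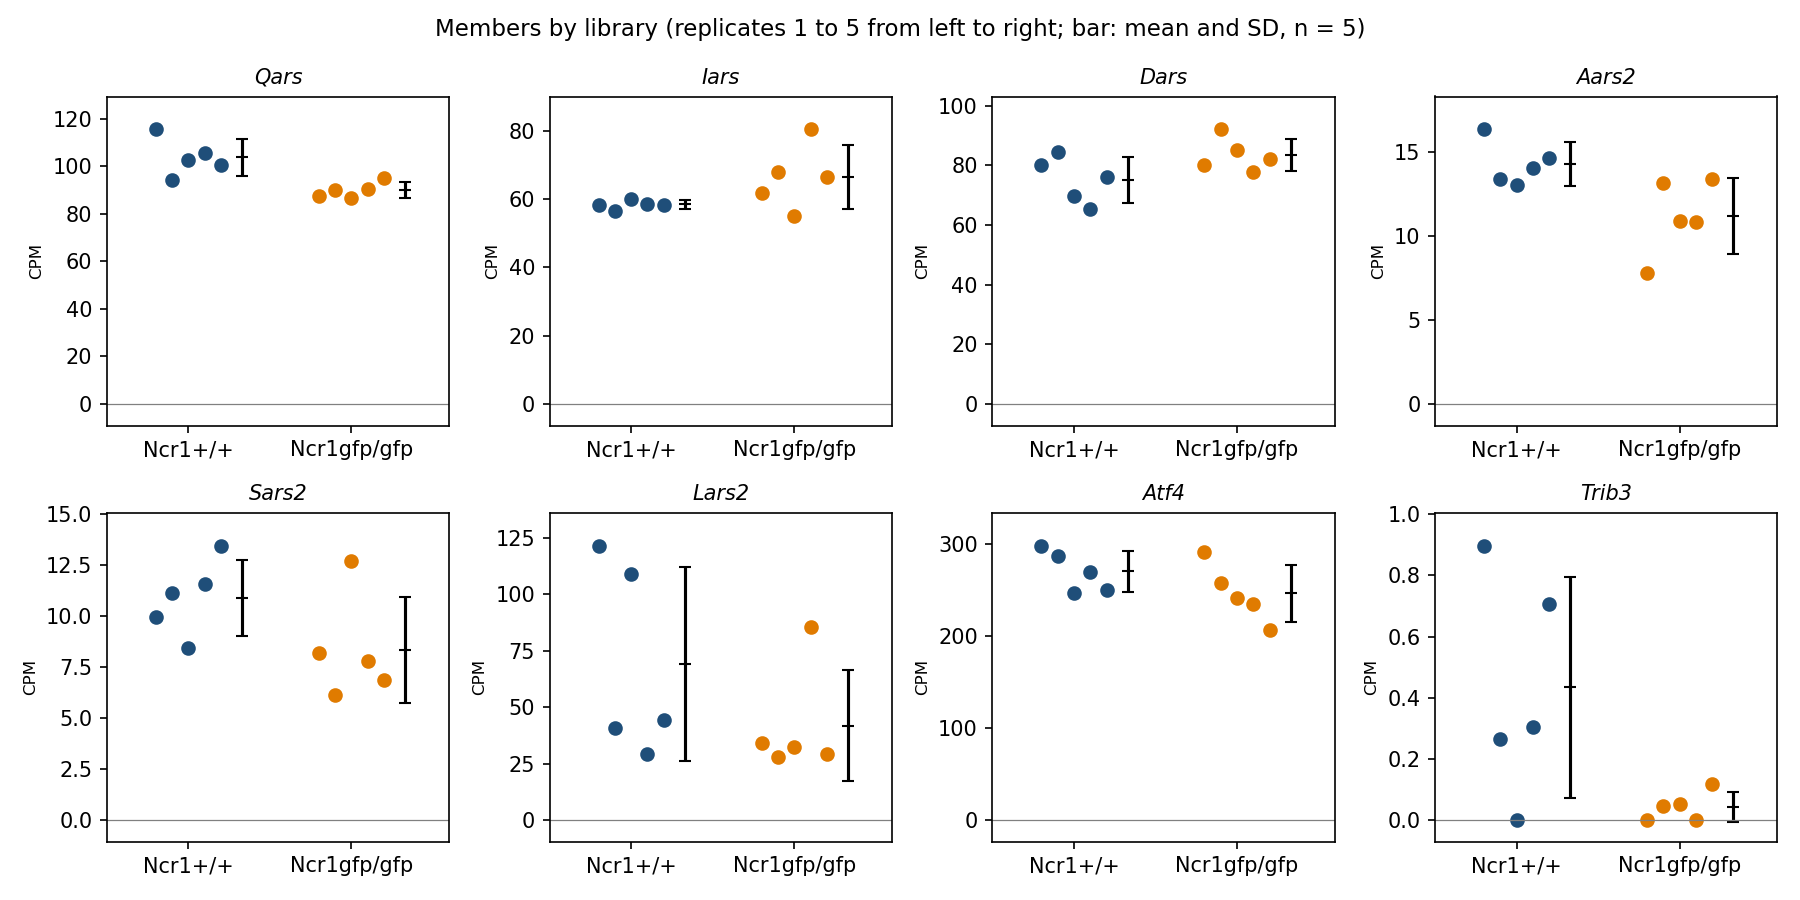
CPM of 8 of the genes in each library, replicates 1 to 5 from left to right within each genotype, with the mean and SD (n = 5) as a bar. *Qars* and *Aars2* are mostly lower in *Ncr1*gfp/gfp ILC1s with overlap at the edge, *Lars2* has 2 high *Ncr1*+/+ libraries and 1 high *Ncr1*gfp/gfp library, and *Trib3* stays under 1 CPM throughout.

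For 10 amino acids both the cytosolic and the mitochondrial gene were in the group, and their ratio of CPM per kb was compared within each library. The cytosolic gene was the higher in every library for 8 of the 10 pairs. The median ratio was highest for *Vars* over *Vars2*, at 14.4 in both genotypes, with a range of 10.2 to 21.8 over the 10 libraries. *Nars* over *Nars2* had medians of 10.4 in *Ncr1*+/+ and 9.67 in *Ncr1*gfp/gfp ILC1s, and *Aars* over *Aars2* medians of 7.32 and 9.74. Isoleucine was the one pair with medians under 1, at 0.773 in *Ncr1*+/+ and 0.944 in *Ncr1*gfp/gfp ILC1s, since *Iars2* was the highest mitochondrial and *Iars* among the lowest cytosolic genes. Its ratios ran from 0.677 to 0.816 in *Ncr1*+/+ and from 0.731 to 1.17 in *Ncr1*gfp/gfp ILC1s, and so overlapped. *Lars* over *Lars2* spanned 0.701 to 3.57, falling below 1 in the *Ncr1*+/+ libraries with high *Lars2*. The remaining pairs (*Mars*, *Rars*, *Sars*, *Tars* and *Yars* with their mitochondrial partners) had medians from 1.64 to 6.92. These ratios reuse the levels above and were not tested between the genotypes.

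**Figure D4:**
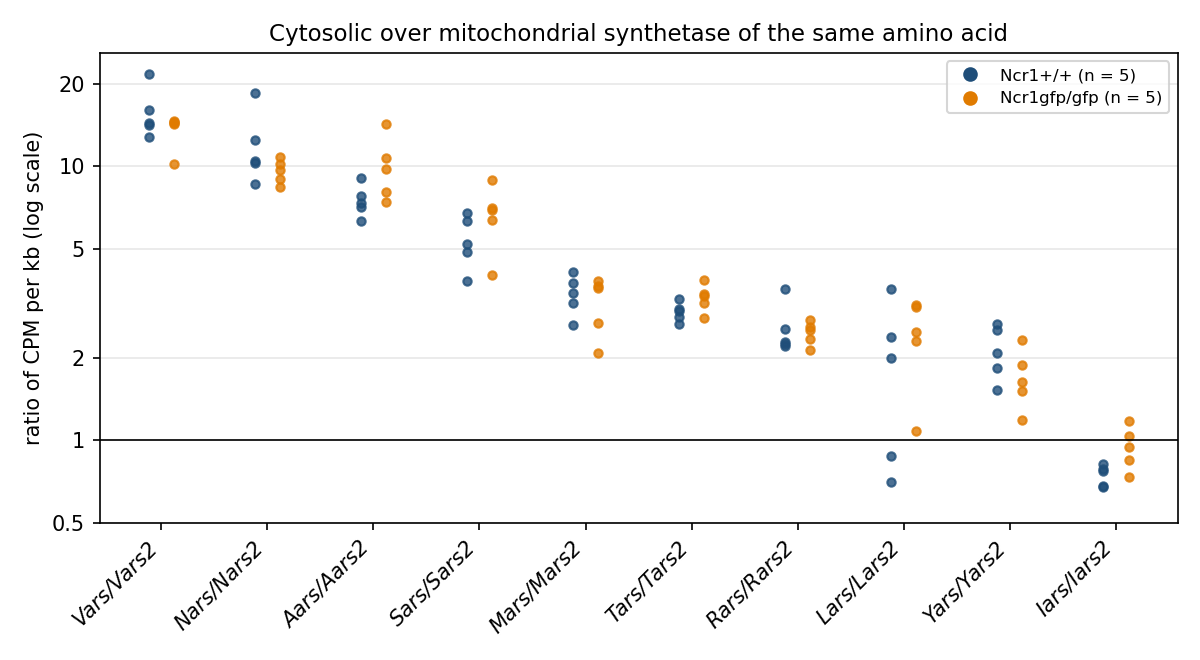
Ratio of the cytosolic to the mitochondrial synthetase gene of the same amino acid, from CPM per kb in each library on a log scale, 5 points per genotype; the line marks equal levels. Pairs are ordered by median, from *Vars*/*Vars2* near 14.4 to *Iars*/*Iars2* under 1, and the genotypes overlap in each pair.

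*Atf4*, on chromosome 15 from 80085614 to 80087975 (plus strand), was the most highly expressed of the 39 genes at 149.7 CPM per kb. It had 299, 287, 247, 270 and 250 CPM in *Ncr1*+/+ and 292, 258, 242, 235 and 207 CPM in *Ncr1*gfp/gfp ILC1s. The ranges overlapped, with 3 *Ncr1*gfp/gfp libraries under the lowest of *Ncr1*+/+. Its log2 fold change was -0.13 (standard error 0.08, edgeR adjusted p = 0.550; two-sided exact permutation test, p = 0.214), with a 95% interval of the fold change from 0.815 to 1.02.

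The stress genes downstream of *Atf4* were far lower than *Atf4* itself. *Ddit3*, which encodes the pro-apoptotic factor CHOP, had 21.9 CPM per kb, *Ddit4*, an inhibitor of mTORC1 signalling, 12.1, and *Psat1*, an enzyme of serine synthesis, 11.8. *Phgdh*, the first enzyme of that pathway, stood at 4.16 and *Sesn2*, a leucine sensor upstream of mTORC1, at 3.26 CPM per kb. Among the 6 tested genes of this group 2 log2 fold changes were below 0 and 4 above, from -0.13 to 0.19, with a median of 0.06. The lowest adjusted p was that of *Atf4*, and 0 of the 6 had an unadjusted edgeR p under 0.05.

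*Ddit3* had 19.1, 18.2, 22.2, 20.9 and 16.3 CPM in *Ncr1*+/+ and 15.5, 18.4, 22.9, 18.9 and 18.0 CPM in *Ncr1*gfp/gfp ILC1s, a log2 fold change of -0.04 (standard error 0.13, edgeR adjusted p = 0.944). The genotypes were interleaved. *Ddit4* had 13.9, 15.97, 22.8, 25.3 and 22.4 CPM in *Ncr1*+/+ and 19.6, 29.4, 23.03, 14.5 and 17.3 CPM in *Ncr1*gfp/gfp ILC1s, a log2 fold change of 0.05 (standard error 0.18, edgeR adjusted p = 0.953). It spread over about the same range in both, and the sign of either gene changed with the libraries or the tool used. *Psat1*, *Phgdh* and *Sesn2* had log2 fold changes of 0.07, 0.09 and 0.19 (edgeR adjusted p = 0.915, 0.939 and 0.831).

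*Asns*, *Chac1* and *Trib3* were at or near the limit of detection. *Asns*, encoding asparagine synthetase, had 12 counts in *Ncr1*+/+ replicate 3, 7 in *Ncr1*gfp/gfp replicate 1 and 0 in the other 8 libraries. *Chac1*, which encodes a glutathione-degrading enzyme, had 0 counts in all 10, which allows a level of up to 0.132 to 0.1905 CPM in a library. *Trib3*, a pseudokinase gene that CHOP and ATF4 induce, had 16, 6, 0, 6 and 13 counts in *Ncr1*+/+ and 0, 1, 1, 0 and 2 counts in *Ncr1*gfp/gfp ILC1s. The counts overlapped through the *Ncr1*+/+ library at 0. Summed over libraries and scaled to their sizes, 4 counts against 41 put *Trib3* in *Ncr1*gfp/gfp at 10.7% of its *Ncr1*+/+ level (exact interval 2.78% to 29.5%, counting error only). Over libraries the two-sided exact permutation test gave p = 0.0476, unadjusted over genes. In an edgeR fit without the low-count filter, over 16610 genes, the adjusted p of *Trib3* was 0.386.

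Other genes around tRNA charging and ATF4 were read from the same fit, and none of the 73 tested in 5 lists passed. All 15 other tRNA charging genes, which include the remaining mitochondrial synthetases and the complex scaffolds *Aimp1*, *Aimp2* and *Eef1e1*, were tested, with 4 below 0 and a median log2 fold change of 0.07. The smallest p there was that of *Gatc*, a subunit of the amidotransferase that makes mitochondrial glutaminyl-tRNA, at 0.29 (standard error 0.15, edgeR adjusted p = 0.474). Of 16 genes for eIF2alpha kinases, phosphatase subunits and initiation factors 6 were below 0, with a median of 0.03. *Eif2ak4*, which encodes GCN2, was at 0.11 (edgeR adjusted p = 0.816).

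*Ppp1r15a* led that list and came closest to the threshold. It encodes GADD34, the stress-inducible phosphatase subunit that removes phosphate from eIF2alpha and is itself an ATF4 target. The gene shares chromosome 7 with *Ncr1* and is listed there from 52778288 to 52781638 (minus strand). Its level was 180, 162, 132, 153 and 77.4 CPM in *Ncr1*+/+ and 99.6, 93.1, 99.3, 101 and 72.1 CPM in *Ncr1*gfp/gfp ILC1s. The genotypes overlapped through *Ncr1*+/+ replicate 5 alone. Its log2 fold change over all libraries was -0.60 (standard error 0.15, edgeR adjusted p = 0.0501). Without *Ncr1*+/+ replicate 5, the library that made the overlap, the edgeR adjusted p was 0.000185. That fit leaves out the library at odds with the difference, so its smaller p is no further evidence for it. *Ppp1r15a* passed in none of the other fits without 1 library each. Over 18 alternative fits the adjusted p ran from 0.000185 to 0.172, and *Ppp1r15a* passed in 6 of them. *Ppp1r15b*, the constitutive subunit, had 304 ± 20.1 CPM in *Ncr1*+/+ and 314 ± 15.4 CPM in *Ncr1*gfp/gfp ILC1s (SD, n = 5 each; log2 fold change 0.05, edgeR adjusted p = 0.844).

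Among 22 other ATF4 pathway genes, 14 were tested, of which 10 were below 0, with a median log2 fold change of -0.20. *Fgf21* and *Gdf15*, which encode secreted stress factors, had 0 counts in all libraries. *Sesn3*, a sestrin, had 174 to 190 CPM in *Ncr1*+/+ and 191 to 217 CPM in *Ncr1*gfp/gfp ILC1s and did not overlap, but missed the threshold (log2 fold change 0.19, standard error 0.06, edgeR adjusted p = 0.117). *Shmt2*, mitochondrial serine hydroxymethyltransferase, did not overlap in the other direction, at 45.6 to 59.3 and 40.6 to 43.7 CPM (log2 fold change -0.22, edgeR adjusted p = 0.314). Of 8 tested amino acid transporters 7 were below 0, with a median of -0.09, led by the leucine importer *Slc7a5* at -0.55 (standard error 0.22, edgeR adjusted p = 0.294). Its partner chain *Slc3a2* was at -0.03 (edgeR adjusted p = 0.940).

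Genes of the endoplasmic reticulum's unfolded protein response, a separate input to ATF4 through the kinase PERK, numbered 20, all tested, with 14 below 0 and a median of -0.02. *Ern1*, which encodes the sensor IRE1alpha, had 136, 96.1, 109, 101 and 113 CPM in *Ncr1*+/+ and 87.8, 80.2, 95.2, 82.9 and 93.1 CPM in *Ncr1*gfp/gfp ILC1s. Every *Ncr1*gfp/gfp library was lower, by a small margin at the edge. This gave a log2 fold change of -0.34 (standard error 0.09, edgeR adjusted p = 0.0538), and *Ern1* passed in 6 of 18 alternative fits, the adjusted p over the 18 being 0.0105 to 0.144. The chaperone gene *Hspa5* had 873 ± 50.8 CPM in *Ncr1*+/+ and 829 ± 92.8 CPM in *Ncr1*gfp/gfp ILC1s (SD, n = 5 each; log2 fold change -0.08, edgeR adjusted p = 0.752).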

How the data were processed

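Poly(A) RNA-seq libraries (SMART-Seq v4, 2 ng RNA, single reads of 51 cycles) were made from 5 *Ncr1*+/+ and 5 *Ncr1*gfp/gfp samples of liver ILC1s. Per the study's methods, reads were trimmed (Trimmomatic 0.38, FASTP), aligned by STAR 020201 and summed per gene by HTSeq 0.6.0 at default parameters, and the authors deposited these raw counts. Reads of overlapping or antisense genes may not be told apart. The authors mapped to mm10, but the coordinates in the table differ from that build.

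The edgeR 4.0.16 package (R 4.3.3) was used for the low-count filter (filterByExpr), TMM normalization and a quasi-likelihood test without covariates over 11463 genes. DESeq2 1.42.0, limma 3.58.1, other normalizations, filters and left-out libraries were alternatives. CPM is TMM-normalized, and per-kb values use the table's exon lengths. Members and lists were chosen with earlier results of these data known. Described in full were the 6 members with the smallest p, *Atf4*, *Ddit3*, *Ddit4*, *Asns*, *Chac1* and *Trib3*, and from each other list any gene that passed or else the one with the smallest p. *Ncr1*, the targeted gene, checked the labels. *Shmt2*, *Eif2ak4*, *Ppp1r15b*, *Fgf21*, *Gdf15*, *Slc3a2*, *Hspa5*, *Alb*, *Cd3d*, *Cd4*, *Cd8b1* and *Cd5* were chosen after their values were seen. No pair of same-genotype libraries agreed within sampling noise (chi-square per gene 9.26 to 24.3, 20 pairs), so none was taken for a repeat of another library. This does not show that they came from separate mice.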

Additional observations from a re-analysis of the deposited data

Results flagged for a closer look

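With 5 libraries in each of 72 gene and genotype combinations, a library far from its group was found in 2, where chance alone gives about 3.6. *Lars2* had 85.5 CPM in *Ncr1*gfp/gfp replicate 4, while the next library of that genotype had 34.1. *Vars2* had 36.3 CPM in *Ncr1*gfp/gfp replicate 1, while the next had 28.8.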

How the results depend on the processing

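In each of 19 alternative fits 0 of the synthetase and ATF4 genes passed, with between 2 and 5 at an unadjusted p under 0.05. Over all tested genes, the share at that p was lowest without *Ncr1*+/+ replicate 4 and highest in limma-voom. It was 1079 of 11568 and 1487 of 11463 genes, against 2 and 4 of the 36 members. The fit without the filter gave 5 of 38 members and 1986 of 16610 genes. Over fits without 1 library each, the median log2 fold change ran from -0.04 to 0.01 for cytosolic synthetases, from -0.065 (without *Ncr1*gfp/gfp replicate 4) to 0.015 (without *Ncr1*+/+ replicate 3) for mitochondrial ones and from -0.05 to 0.11 for ATF4 stress genes. Of these and the other fits, the one without *Ncr1*gfp/gfp replicate 4 moved the mitochondrial median by more than the SD between libraries of the list's median log2 ratio to the gene means (0.054), and no other fit did so for any of the 3 groups (SD 0.033 for cytosolic and 0.19 for ATF4 genes). Over all genes, 312 passed in DESeq2, 264 in edgeR's likelihood ratio test, 264 without the filter, 84 with the fold limit added, 100 to 160 without 1 library each (102 without *Ncr1*+/+ replicate 1, 100 without replicate 3) and 95 without both *Ncr1*+/+ replicate 1 and *Ncr1*gfp/gfp replicate 3, the libraries high in *Alb*, a fit chosen after seeing the data. *Ddit4* turned to -0.092 in limma-voom, -0.06 without *Ncr1*+/+ replicate 1, -0.02 without *Ncr1*+/+ replicate 2, -0.11 without *Ncr1*gfp/gfp replicate 2 and -0.10 without the 2 *Alb*-high libraries, and reached 0.16 without *Ncr1*gfp/gfp replicate 4. *Ddit3* turned to 0.01 without *Ncr1*+/+ replicate 3 and 0.016 without *Ncr1*gfp/gfp replicate 1, and was -0.13 without the *Alb*-high libraries. The cause was not tested. *Ppp1r15a* passed with upper-quartile normalization, the likelihood ratio test, no filter, a minimum of 10 counts, the replicate block and without *Ncr1*+/+ replicate 5. *Ern1* passed in DESeq2, the likelihood ratio test, with no filter, a minimum of 10 counts, the replicate block and without *Ncr1*+/+ replicate 2. *Sesn3* passed in DESeq2 (adjusted p = 0.0239) and in none of its other alternatives. Of the alternative values for 14 named genes, 232 kept direction and side of the threshold, 7 turned sign and 13 newly passed. Over all tested genes, same-numbered libraries did not deviate together (correlations from -0.02 to 0.04, replicate 1 alone fitting its own number best). Correlations over all genes cannot show whether same-numbered samples had something in common that moved only some genes. The labels give a replicate number and no pairing. With the replicate block 156 genes passed against 155, and 0 of the members. With 5 libraries per genotype, the intervals of *Lars2*, *Sars2*, *Aars2*, *Yars2* and *Sesn2* reached past 1.5-fold.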

Other observations

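The libraries with the highest *Lars2* were also those with the highest *Mir6236*, a microRNA gene chosen after its values were seen. *Mir6236* is listed on chromosome 9, 13092132 bases from *Lars2*. It had 20.1, 4.81, 42.1, 4.85 and 14.2 CPM in *Ncr1*+/+ and 7.56, 6.76, 3.49, 23.8 and 4.11 CPM in *Ncr1*gfp/gfp ILC1s. The ribosomal RNA precursor *Rn45s*, with 33792 to 49207 CPM over the 10 libraries, had 46470, 39557 and 33792 CPM in the 3 libraries with the highest *Lars2*. Whether these values have a common source was not tested.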
